A study of Mus musculus with 7 samples.

Results

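Potassium and TRP channels that microglia express were compared between cells from inside and outside neural grafts. The set holds 10 genes, taken by name from a list of channels known in microglia, out of 55341 gene names with counts. All 10 passed the filter on low counts that left 15257 genes. They are Kcnk6, Kcnk13 and Kcnk12 of the K2P family, the voltage-gated Kcna3 and Kcnd1, the inward rectifier Kcnj2, the calcium-activated Kcnn4, and Trpv2, Trpm2 and Trpm7. The rule used gene names only, although the set was drawn up with earlier results of these data known.

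Bulk RNA-seq was performed on CD11b+CD45low microglia, the resident macrophages of the brain, sorted by flow cytometry. All mice were 5xFAD, which carry mutant human APP and PS1 transgenes under the neuronal Thy1 promoter and deposit amyloid, on a C57BL/6 background. The mice were female per the study's methods, and per the labels 14 weeks old, 4 weeks after WT embryonic cortical cells had been injected into their cortex. The 3 inside graft libraries came from dissected grafts and the 4 outside graft libraries from small pieces of host cortex near them, so the outside tissue also belongs to grafted 5xFAD mice and no ungrafted or WT host was compared here. Neither the labels nor the methods say whether libraries came from separate mice or from pooled ones, and P values therefore measure the spread between these libraries, which may in part be technical.

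Microglia hold their membrane potential with potassium channels. K2P channels are open at rest and pass a background potassium current, which in microglia is carried largely by THIK-1, the product of Kcnk13, and which sets ramification, surveillance of the tissue and potassium loss before inflammasome activation. Inward rectifiers such as Kir2.1 (Kcnj2) clamp the potential of a resting cell near that of potassium, whereas Kv1.3 (Kcna3) and KCa3.1 (Kcnn4) are known to accompany activation and restore the driving force for calcium entry. TRP channels are cation channels that let calcium in, among them Trpm2, which is gated by ADP-ribose after oxidative stress, and Trpm7, which also passes magnesium and has a kinase domain of its own.

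The sequence upstream of 3 members is shown because Kcnj2 and Kcnk12 had groups that did not overlap and Kcnk13 is the close relative of Kcnk12 with groups that did. RefSeq promoters (GRCm38.p6) matched 8 of the 10 members, all but Kcnk6 and Kcnd1. The 250 bases before the annotated start are given 5' to 3' on the gene's strand, and lie at chr11:111065914-111066163 (+ strand) for Kcnj2, chr17:87797995-87798244 (- strand) for Kcnk12 and chr12:99964249-99964498 (+ strand) for Kcnk13. Capitals mark matches to 8 short motifs, as the motif or as its reverse complement.
Kcnj2: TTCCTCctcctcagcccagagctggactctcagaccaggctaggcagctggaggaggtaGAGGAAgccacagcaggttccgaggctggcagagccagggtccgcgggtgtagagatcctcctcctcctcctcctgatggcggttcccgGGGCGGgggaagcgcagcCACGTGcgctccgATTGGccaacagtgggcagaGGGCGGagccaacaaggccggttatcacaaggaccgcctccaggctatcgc
Kcnk12: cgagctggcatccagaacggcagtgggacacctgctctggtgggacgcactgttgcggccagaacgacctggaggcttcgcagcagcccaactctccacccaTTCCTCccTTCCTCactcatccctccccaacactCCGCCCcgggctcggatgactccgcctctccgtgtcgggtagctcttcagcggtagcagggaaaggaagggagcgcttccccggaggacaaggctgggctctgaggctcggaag
Kcnk13: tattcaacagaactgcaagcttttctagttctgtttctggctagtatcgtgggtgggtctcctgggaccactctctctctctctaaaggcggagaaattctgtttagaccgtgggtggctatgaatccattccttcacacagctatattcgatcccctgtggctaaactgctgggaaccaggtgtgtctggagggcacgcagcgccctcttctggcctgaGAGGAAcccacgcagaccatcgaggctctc
The search covered 32851 promoters of the same length, and no matches overlapped in the 3 windows. GAGGAA, the core bound by the myeloid lineage factor PU.1, was found 2 times upstream of Kcnj2, 2 times upstream of Kcnk12 and 1 time upstream of Kcnk13, and 23.3% of all promoters held it at least once. The GC box GGGCGG was found 2 times for Kcnj2 and 1 time for Kcnk12, and 32.7% of all promoters held it. Kcnj2 also had 1 match to the E-box CACGTG, which 6.02% of promoters held, and 1 to the letters CCAAT, which 33.8% held. None of these windows matched the AP-1 site TGANTCA (6.75% of promoters), the cyclic AMP element TGACGTCA (1.55%), the letters TATAAA (12.4%) or an IRF-type element (2.98%). GC content was 65.6% for Kcnj2, 64.8% for Kcnk12 and 52.8% for Kcnk13, against a median of 52.4% over all promoters. These matches describe letters in a window and no binding was measured.

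The libraries held between 18644807 and 25882122 counted reads. All 8 microglial markers, P2ry12 and Tmem119 among them, were measured, with a summed level of 42409 to 49145 CPM (counts scaled to the library total) inside and 48242 to 54158 CPM outside, and 0 of 8 were called by edgeR or voomWithQualityWeights and 1 (P2ry12, lower) by DESeq2. All 8 had an edgeR log2 fold change below 0 (median -0.17), 4 of them at an unadjusted P below 0.05, and 3 were lower in every inside library than in any outside one. Markers of other cells and states stood higher inside the graft. The 5 neutrophil markers (4 tested, mostly S100a8 and S100a9) summed to 387 to 8043 CPM inside and 0.267 to 170.0 CPM outside, the 6 monocyte markers (all tested) to 77.5 to 1369 CPM against 6.56 to 27.3 CPM, and the 7 markers of border-associated macrophages (6 tested) to 16.7 to 121 CPM against 5.96 to 17.8 CPM. Of these 3 lists edgeR and voomWithQualityWeights called 0 genes, DESeq2 called S100a8, Ly6c2, Ms4a7 and Pf4, and 3, 5 and 5 genes were higher at an unadjusted P below 0.05 in edgeR. Inside graft 2 had the lowest inside value of all 3 sums. The neutrophil marker Mpo was at 0 in inside graft 2 and in every outside library. The 6 markers of dividing cells (0 called by edgeR, 2 by voomWithQualityWeights, 3 by DESeq2, 6 higher at an unadjusted P below 0.05 in edgeR) ran from 78.2 to 113 CPM inside and 7.97 to 35.7 CPM outside, and the 8 of plaque-associated microglia (2, 4 and 5 called by these tests) from 5099 to 11894 CPM against 1220.1 to 2251 CPM. Neuronal, oligodendrocyte and B cell sums overlapped between the groups, with Ms4a1, a B cell marker, at 0 everywhere. Astrocyte markers summed to 247 to 291 CPM inside and 325 to 352 CPM outside with Gja1 at 0 throughout, and endothelial markers to at most 61.2 CPM. Nearly all of the astrocyte sum was Slc1a3 (mean 268 CPM inside and 338 CPM outside). Of the other astrocyte markers, Aldoc and Gfap had higher means inside, and Aqp4 and Slc1a2 had lower ones. T and NK cell markers summed to 1.20 to 11.96 CPM inside and at most 0.160 CPM outside, with Trbc2 and Ncr1 at 0 throughout. Of these T and NK cell markers 0 of 6 passed the filter on low counts, so they could not be called. Tested were 2 of 6 neuronal, 4 of 5 oligodendrocyte, 1 of 4 B cell, 5 of 6 astrocyte and 4 of 5 endothelial markers. Of those tested, 0 were called by edgeR or voomWithQualityWeights. Calls by DESeq2 included Slc1a3 (astrocytes) and Pecam1 (endothelial cells), both lower inside, and these cell types had 1 marker each at an unadjusted P below 0.05 in edgeR. In sorted bulk samples, fewer cells of a type and less RNA per cell cannot be told apart.

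Levels were compared between genes as TPM, in which counts are divided by gene length before scaling. Kcnk6 (178 TPM, mean of the 7 libraries) and Kcnk13 (131 TPM) were the most abundant members, followed by Trpv2 (88.2 TPM), Kcnk12 (51.1 TPM), Kcnd1 (48.5 TPM), Trpm2 (32.6 TPM), Kcnj2 (31.4 TPM), Trpm7 (23.8 TPM), Kcna3 (11.5 TPM) and Kcnn4 (3.08 TPM). The 3 K2P genes made up 55.4% to 61.9% of the members' summed TPM inside the graft and 57.1% to 63.2% outside, and the groups overlapped. The sum over all members was 520.0 to 608 TPM inside and 480.2 to 719.9 TPM outside.

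The order of the members changed at Kcnj2. Outside the graft Kcnj2 stood 8th by mean TPM (22.0 ± 4.21, SD, n = 4) and inside it stood 4th (43.9 ± 14.0, SD, n = 3). Among the 9 pairs of neighbours in the inside order, 4 had ranges that overlapped, namely Kcnk6 and Kcnk13, Kcnj2 and Kcnk12, Kcnk12 and Kcnd1, and Kcnd1 and Trpm2. Outside, 5 pairs overlapped, namely Kcnk6 and Kcnk13, Kcnk13 and Trpv2, Kcnk12 and Kcnd1, Trpm7 and Kcnj2, and Kcna3 and Kcnn4. The inside rank of Kcnj2 was therefore separated from Trpv2 above it but not from Kcnk12 below it. Its inside range also overlapped those of Kcnd1 and Trpm2. It stood 4th in inside graft 1 only, as Trpm2 was above it in inside graft 2 and Kcnk12 in inside graft 3.

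**Figure D1:**
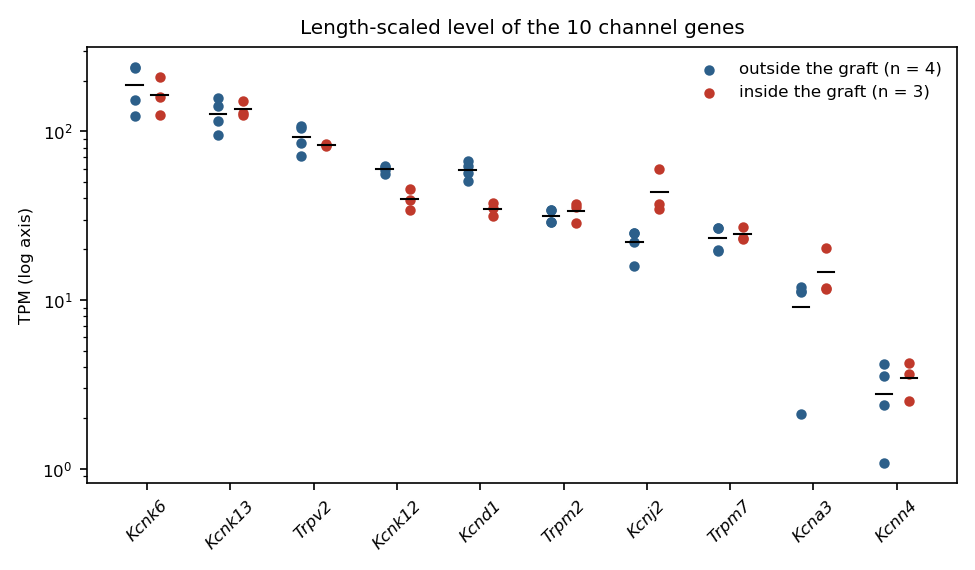
Level of each member in TPM (log axis) in the 3 inside graft and 4 outside graft libraries, 1 point per library and bars for the means. Kcnk6 and Kcnk13 lie above 90 TPM in every library, Kcnn4 lies below 5 TPM, and Kcnj2, Kcnd1 and Kcnk12 show groups that do not overlap.

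Inside against outside, the clearest differences were a higher level of Kcnj2 and lower levels of Kcnd1 and Kcnk12. With edgeR's quasi-likelihood test and Benjamini-Hochberg adjustment over 15257 genes, 0 of 10 members passed an adjusted P of 0.05, against 0.0983% of all genes. At an unadjusted P below 0.05 there were 3 of 10, against 9.55% of all genes, with Kcnj2 higher (1 of 10, against 5.76%) and Kcnd1 and Kcnk12 lower (2 of 10, against 3.79%). With limma's voomWithQualityWeights, the test of the study, 1 of 10 passed at 0.05, against 0.492% of all genes. It was Kcnj2, higher inside, and 0.433% of all genes passed in that direction. The study itself called genes at an adjusted P below 0.01. At that threshold 0 of 10 members passed with voomWithQualityWeights, against 3 of all 15257 genes. With DESeq2 2 of 10 passed at 0.05 (Kcnj2 and Kcnd1), against 2.76%. The inside values were all above the outside values for 1 of 10 members, against 5.65% of genes, and all below them for 2 of 10, against 5.02%. The median log2 fold change of the members was 0.19, against -0.0064 over all genes tested. With so few members called, nothing is read from these counts about the set as a whole.

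**Figure D2:**
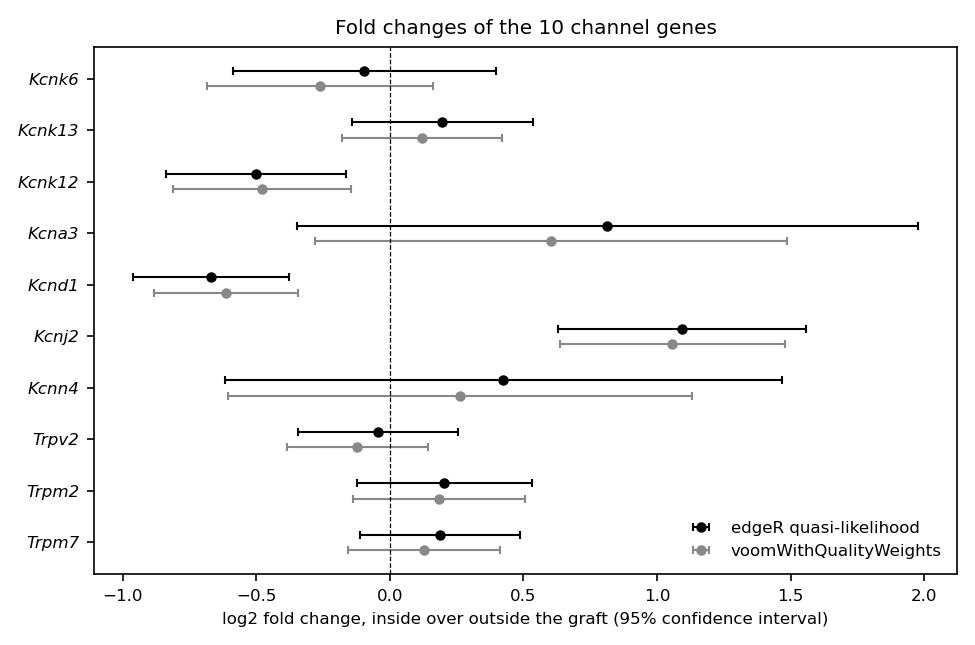
Difference of each member between the groups, as log2 of inside divided by outside graft, from edgeR and from voomWithQualityWeights with 95% confidence intervals. The intervals of Kcnj2, Kcnd1 and Kcnk12 exclude 0 in both tests, and those of Kcna3 and Kcnn4 are the widest.

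Kcnj2 encodes the inward rectifier Kir2.1. The gene (ENSMUSG00000041695.2) lies at chr11:111066164-111076821 on the + strand of GRCm38 and has 2 exons, and its promoter is the first of those printed. Its level was 107, 68.5 and 67.0 CPM in inside graft 1 to 3 and 28.8, 44.6, 36.3 and 41.9 CPM in outside graft 1 to 4. Every inside library was above every outside library, and inside graft 1 was the highest. The means were 80.9 ± 22.7 CPM (SD, n = 3) and 37.9 ± 6.98 CPM (SD, n = 4), a 2.13-fold difference. In edgeR the log2 fold change was 1.09 (SE 0.21, 95% interval 0.63 to 1.56) with an adjusted P of 0.0899. In voomWithQualityWeights it was 1.06 (SE 0.19) with an adjusted P of 0.0420, and in DESeq2 the adjusted P was 0.000114, over a range of 0.000114 to 0.541 for the alternatives to edgeR. The call by voomWithQualityWeights was lost when any library other than inside graft 2 was left out, with adjusted P values of up to 0.262 (without outside graft 3), while the log2 fold change stayed between 0.80 and 1.14. Inside graft 2 alone, the inside library with the fewest neutrophil and monocyte transcripts, gave a log2 fold change of 0.86 against the outside libraries in edgeR (adjusted P = 0.541). The same library had the highest sum of plaque-associated markers (11894 CPM). Neutrophil, monocyte and plaque-associated marker sums were all higher inside the graft, as Kcnj2 was, and their part in its difference was not tested.

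Among all tested genes, those whose log2(CPM + 1) followed Kcnj2 most closely over the 7 libraries were Hif1a (Pearson r = 0.985), which encodes a subunit of the hypoxia-inducible factor, Slc44a1 (r = 0.983), a choline transporter, and Efcab14 (r = 0.982). These values describe 7 points that fall into the inside and outside groups, and genes picked for likeness share the difference between them. Hif1a, for one, was 299.9 ± 59.5 CPM (SD, n = 3) inside and 171 ± 20.02 CPM (SD, n = 4) outside.

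Kcnd1 encodes Kv4.1, a voltage-gated channel of the rapidly inactivating A type. It lies at chrX:7822289-7838280 (+ strand) and has up to 6 exons. Its level was 65.0, 60.3 and 60.9 CPM inside and 116, 88.8, 98.6 and 91.9 CPM outside. The 3 inside values lay close together and below all 4 outside values, of which outside graft 1 was the highest. The means were 62.1 ± 2.59 CPM (SD, n = 3) and 98.7 ± 12.1 CPM (SD, n = 4). In edgeR the log2 fold change was -0.67 (SE 0.13, 95% interval -0.96 to -0.38) with an adjusted P of 0.0907, in voomWithQualityWeights -0.61 with an adjusted P of 0.0546, and DESeq2 gave an adjusted P of 0.000474, with a range of 0.000474 to 0.523 over the alternatives. The direction held with each library left out in turn, between -0.72 and -0.58 on the log2 scale in edgeR. In inside graft 2 alone it was -0.71 (edgeR, adjusted P = 0.523).

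As Kcnj2 and Kcnd1 differed in opposite directions, their ratio separated the groups, a description chosen after the values were seen. The TPM of Kcnj2 divided by that of Kcnd1 was 1.599, 1.10 and 1.07 inside the graft and 0.241, 0.488, 0.358 and 0.443 outside it. Kcnj2 was the more abundant of the pair in every inside library and the less abundant in every outside library.

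**Figure D3:**
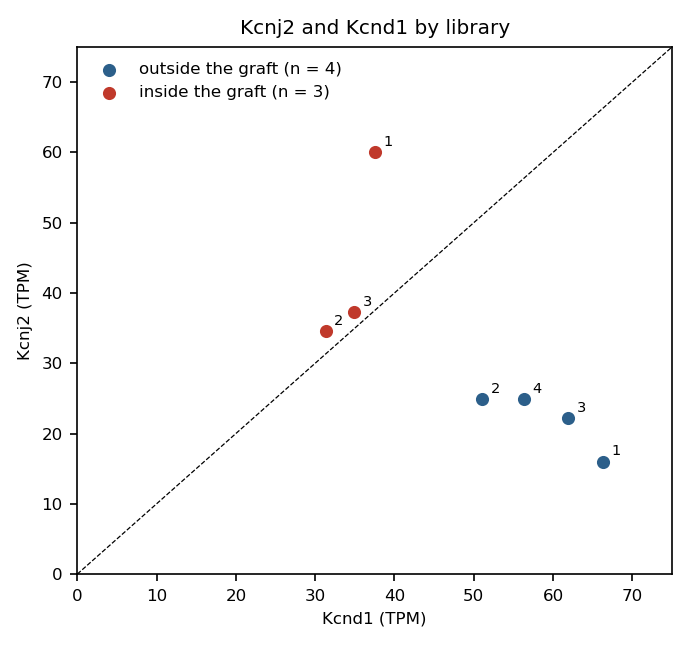
Level of Kcnj2 against that of Kcnd1, both in TPM, with 1 point per library. The 3 inside libraries lie where Kcnj2 is more abundant than Kcnd1 and the 4 outside libraries where Kcnd1 is more abundant.

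Of the K2P genes, 0 of 3 were called by edgeR, voomWithQualityWeights or DESeq2, and 1 of 3, Kcnk12, had an unadjusted P below 0.05 in edgeR. Kcnk12 encodes THIK-2, the nearest relative of THIK-1, and lies at chr17:87745801-87797994 (- strand). It stood at 29.3, 24.4 and 25.5 CPM inside the graft and 36.3, 40.6, 36.5 and 36.0 CPM outside, so the groups did not overlap. The means were 26.4 ± 2.55 CPM (SD, n = 3) and 37.4 ± 2.17 CPM (SD, n = 4). Its log2 fold change of -0.50 (edgeR, SE 0.15, 95% interval -0.84 to -0.16) had an adjusted P of 0.261, and 0.210 with voomWithQualityWeights and 0.0667 with DESeq2, the lowest of its alternatives (the highest was 0.731), so no test called it.

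Kcnk13, which encodes THIK-1 itself and lies at chr12:99964499-100062682 (+ strand), gave 154, 146 and 128 CPM inside and 98.0, 118, 132 and 151 CPM outside. Its groups overlapped, and the edgeR log2 fold change was 0.20 (95% interval -0.14 to 0.54, adjusted P = 0.771). The TPM of Kcnk12 divided by that of Kcnk13 was 0.299, 0.263 and 0.314 inside and 0.585, 0.544, 0.434 and 0.377 outside, again a ratio formed after the values were seen. The Kcnk13 transcript thus had the larger share of the pair in all 7 libraries.

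Kcnk6 encodes TWIK-2, known in macrophages as a route of potassium efflux beside the ATP receptor P2X7. It lies at chr7:29221926-29232515 (- strand). Its level was 217, 188 and 286 CPM inside and 169, 209, 301 and 305 CPM outside. The spread within each group was wide, with outside graft 1 lowest, and the log2 fold change was -0.096 (edgeR, 95% interval -0.59 to 0.40, adjusted P = 0.947). In edgeR, leaving out inside graft 2, outside graft 3 or outside graft 4 turned its sign, with values of at most 0.030. In voomWithQualityWeights the log2 fold change was -0.26 (adjusted P = 0.662). There it stayed between -0.41 and -0.066 with each library left out. With all libraries the direction was thus the same in both tests, and neither called Kcnk6. In edgeR this direction was not stable when a library was left out.

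**Figure D4:**
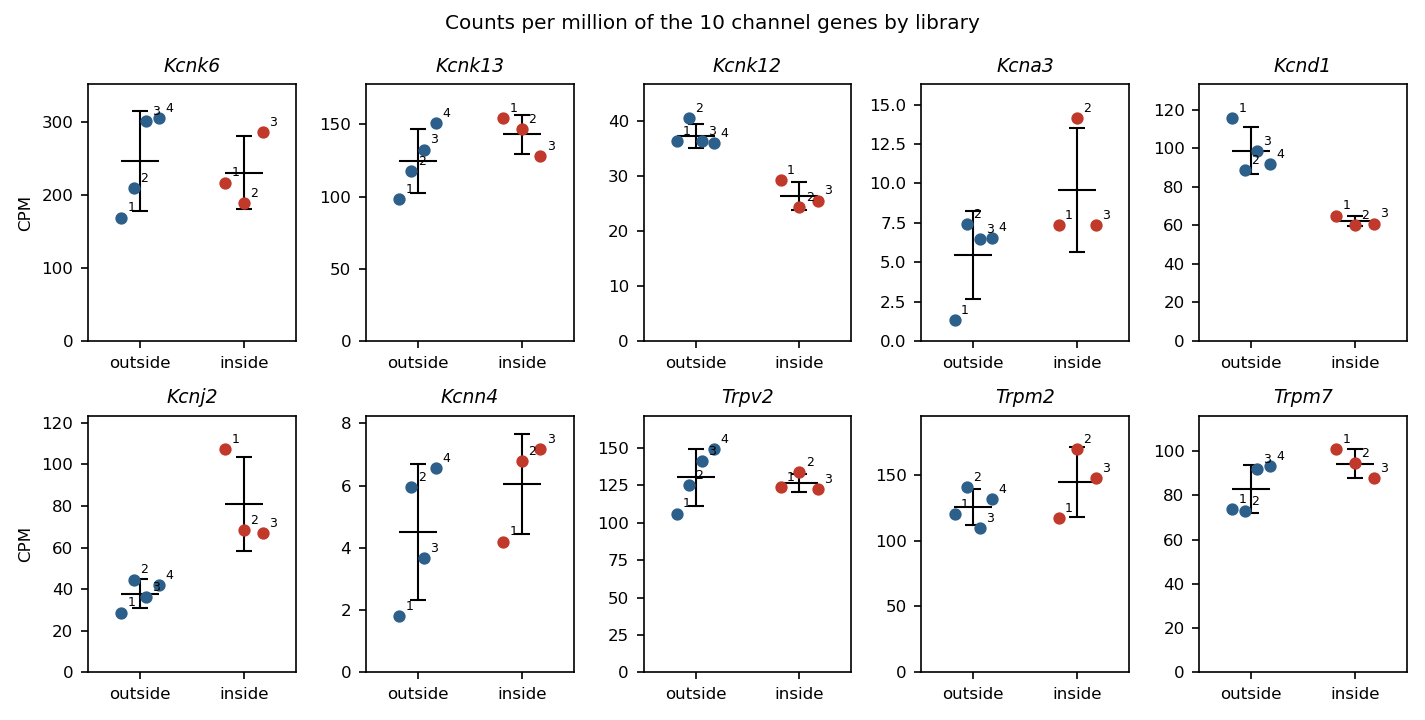
CPM of each member in every library, with numbers for the replicate and bars for mean ± SD (n = 3 inside, n = 4 outside). The groups separate for Kcnj2, Kcnd1 and Kcnk12 and overlap for the other 7 members.

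The channels tied to activation were the least abundant members. Kcna3 encodes Kv1.3 and lies at chr3:107036169-107038070 (+ strand) as a gene of 1 exon. Its level was 7.34, 14.2 and 7.33 CPM inside the graft and 1.33, 7.43, 6.48 and 6.56 CPM outside. Inside graft 2 was the highest and outside graft 1 the lowest, the latter with 25 counts against 161 to 167 in the other outside libraries. The other libraries lay close together, and the log2 fold change of 0.81 had a 95% interval from -0.35 to 1.98 (edgeR, adjusted P = 0.705).

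Kcnn4 encodes KCa3.1, which opens when intracellular calcium rises, and lies at chr7:24370263-24386690 (+ strand). Its level was 4.20, 6.79 and 7.16 CPM inside and 1.81, 5.96, 3.66 and 6.56 CPM outside, from 34 to 170 counts per library. The groups overlapped, with a log2 fold change of 0.42 (edgeR, 95% interval -0.62 to 1.47, adjusted P = 0.861). For Kcna3 and Kcnn4 a 2-fold difference therefore lay within the interval and could not be told from none at this replication.

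The 3 TRP genes stayed close between the groups. They lie at chr11:62574486-62600515 (Trpv2, + strand), chr10:77907722-77970563 (Trpm2, - strand) and chr2:126791565-126876230 (Trpm7, - strand). Trpv2, a cation channel known to take part in phagocytosis by macrophages, was 124, 134 and 122 CPM inside and 106, 125, 141 and 149 CPM outside (edgeR log2 fold change -0.043, 95% interval -0.34 to 0.26, adjusted P = 0.961). Trpm2 was 117, 169 and 147 CPM inside and 119.7, 140.4, 109 and 132 CPM outside (0.20, -0.12 to 0.53, adjusted P = 0.747 in edgeR). Trpm7 was 101, 94.4 and 87.7 CPM inside and 73.7, 72.9, 91.7 and 93.0 CPM outside (0.19, -0.11 to 0.49, adjusted P = 0.747 in edgeR). In all 3 the groups overlapped. The inside values of Trpv2 lay within the range of the outside ones. For these 3, Kcnk6 and Kcnk13, 5 members in all, the 95% interval spanned 0 and lay wholly between -1 and 1, so that a 2-fold difference lay outside it. Exons of Trpm2 overlap 2 small nucleolar RNA genes on the same strand, so reads there cannot be told apart.

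Most other genes of the channel families had too few reads to be tested. Of 11 other K2P genes only Kcnk9 was tested, at 3, 7 and 0 counts inside and 25, 0, 25 and 34 counts outside, and 5 were at 0 in every library (Kcnk3, Kcnk5, Kcnk15, Kcnk16 and Kcnk18). Of 38 other voltage-gated potassium channel genes 7 were tested and of 14 other inward rectifiers 5, with 0 called by edgeR, voomWithQualityWeights or DESeq2 in both lists, 1 and 0 at an unadjusted P below 0.05 in edgeR, and median log2 fold changes of 0.73 and 0.60. The summed level of the other voltage-gated genes was at most 6.94 TPM in any library. Kcnh7, which codes for an ERG-type channel, had the largest change of that list at 2.41 ± 1.71 CPM (SD, n = 3) inside and 0.470 ± 0.226 CPM (SD, n = 4) outside (edgeR log2 fold change 2.34, SE 0.75, adjusted P = 0.297). Kcnd3 (1.37) and Kcnc2 (-0.95) followed in log2 fold change, and Kcng2 (-0.69), the most abundant of the list at 1.95 TPM.

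Among the inward rectifiers, Kcnj12, which codes for Kir2.2 and is the closest relative of Kcnj2 in the list, was the most abundant at 6.67 TPM and had a log2 fold change of 0.075 (edgeR, adjusted P = 0.986). Kcnj10, the glial Kir4.1, had a log2 fold change of 0.98 (adjusted P = 0.655 in edgeR), Kcnj9 0.65 and Kcnj16 0.60, the last of which turned to -0.55 with voomWithQualityWeights. Of 7 other calcium- and sodium-activated genes 2 were tested and 0 called by any of the 3 tools (0 at an unadjusted P below 0.05 in edgeR), namely Kcnma1, which codes for the BK channel, at 33.3 ± 9.16 CPM (SD, n = 3) inside and 30.3 ± 6.20 CPM (SD, n = 4) outside, and Kcnn1 at under 1 CPM. Of 25 other TRP genes 6 were tested and 0 called by any of the 3 tools (1 at an unadjusted P below 0.05 in edgeR), with a median log2 fold change of 0.29. Their summed level was 83.2 to 103 TPM over the 7 libraries. The lysosomal channel gene Mcoln1 was the most abundant at 56.5 TPM, above 7 of the 10 members, and its edgeR log2 fold change of -0.0067 was near 0. Trpv4 was higher in every inside library, at 13.9, 16.4 and 14.5 CPM against 10.4, 6.23, 8.09 and 12.4 CPM, with a log2 fold change of 0.69 that did not pass (SE 0.27, adjusted P = 0.430 in edgeR). Trpm1 (1.62) and Pkd2l2 (0.32) had log2 fold changes that did not pass.

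**Figure D5:**
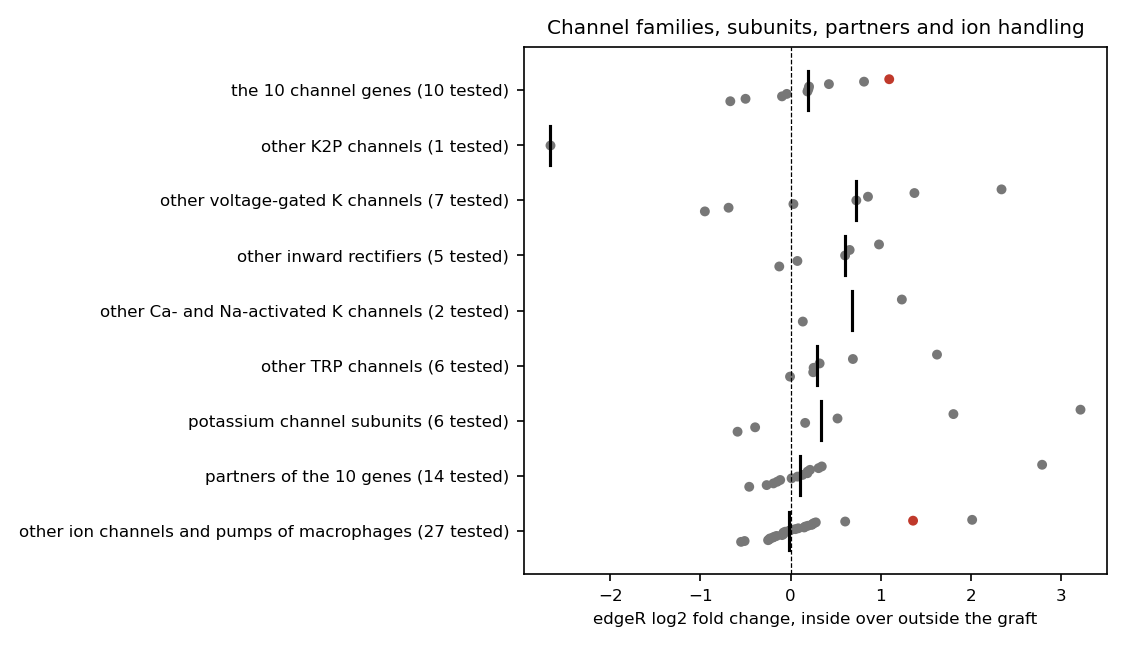
The edgeR log2 fold change (inside over outside) of every tested gene of the 10 members and of 8 lists of related genes, with medians as bars. Genes past an adjusted P of 0.05 in voomWithQualityWeights, which were Kcnj2 and Clic4, are in red.

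Of 20 listed auxiliary subunits of potassium channels, 6 were tested, with 0 called by edgeR or voomWithQualityWeights, 1 (Kcnab2, higher) by DESeq2 and 1 at an unadjusted P below 0.05 in edgeR. Kcnip3, a calcium-binding protein that joins Kv4 channels such as the product of Kcnd1, was the most abundant (19.9 TPM) and had 19.4 ± 4.21 CPM (SD, n = 3) inside and 25.5 ± 2.97 CPM (SD, n = 4) outside (edgeR log2 fold change -0.39, adjusted P = 0.590). Kcnab2, a subunit of Kv1 channels, was 4.12, 0.932 and 10.3 CPM inside and 0.107, 0.890, 0.523 and 0.648 CPM outside. Its inside libraries followed the order of the neutrophil and monocyte sums, whose part in it was not tested, and its edgeR adjusted P was 0.175 with a log2 fold change of 3.22. The adjusted P was 0.00972 in DESeq2 and 0.0390 in edgeR without the filter on low counts, over a range of 0.00972 to 0.530 for the alternatives. Kcnab1 (log2 fold change 1.81) and Kcnip2 (-0.59) were not called.

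Partners of the channels, meaning receptors, G proteins, ADP-ribose enzymes and calmodulins that act on them, were tested for 14 of 15 genes, with 0 called by edgeR or voomWithQualityWeights, 1 (P2ry12, lower) by DESeq2, 2 lower at an unadjusted P below 0.05 in edgeR, and a median log2 fold change of 0.10. P2ry12, the ADP receptor whose signalling draws on microglial potassium current, was 5949.8, 4358 and 4429.8 CPM inside the graft and 6302, 6055, 7439.8 and 7222 CPM outside. Its groups did not overlap, and the log2 fold change of -0.46 (SE 0.12) had an adjusted P of 0.185 in edgeR, 0.0854 in voomWithQualityWeights and 0.0433 in DESeq2. In voomWithQualityWeights it passed with the replicate block (adjusted P = 0.0347), with inside graft 2 alone (0.0434) and without inside graft 1 (0.0321), and did not pass without any other library (up to 0.423). P2rx4, an ATP-gated channel, had a log2 fold change of 0.35 (adjusted P = 0.555 in edgeR). Cd38, which makes the ADP-ribose that opens Trpm2, stood at 1.17 ± 1.06 CPM (SD, n = 3) inside and 0.161 ± 0.322 CPM (SD, n = 4) outside (edgeR log2 fold change 2.79, SE 1.69, adjusted P = 0.674).

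Of 30 other ion channel and pump genes 27 were tested, with 0 called by edgeR (2 at an unadjusted P below 0.05), 1 called by voomWithQualityWeights and by DESeq2 (Clic4, higher inside the graft) and a median log2 fold change of -0.017. Clic4, a chloride intracellular channel protein, was 41.2, 33.2 and 55.2 CPM inside and 20.9, 14.1, 15.3 and 17.2 CPM outside, so the groups did not overlap. Its log2 fold change was 1.37 in voomWithQualityWeights (adjusted P = 0.0303), and the adjusted P in edgeR was 0.0589. With a library left out in turn voomWithQualityWeights called Clic4 in 5 of 7 cases, not without outside graft 3 (adjusted P = 0.180) or outside graft 4 (0.113). In edgeR it was called in 1 of 7 cases, with adjusted P values of 0.0278 to 0.162. Itpr1, which codes for a calcium release channel of the endoplasmic reticulum, had an edgeR log2 fold change of 0.61 (SE 0.25, adjusted P = 0.474). Atp1b2 (2.01), under 2 CPM, and Clic1 (-0.081), the most abundant of the list at 650.0 TPM, were not called. These lists describe the surroundings of the members and were not tested as sets.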

How the data were processed

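Microglia from inside (3 libraries) and outside (4 libraries) WT grafts in 5xFAD mice were profiled by RNA-seq, and groups and replicate numbers came from the sample labels. The authors converted reads with bcl2fastq 2.18, aligned them with STAR 2.7.2a to the mouse genome (GRCm38, GENCODE M21) and deposited the raw counts that featureCounts 1.6.2 gave for each gene name, per the submitters' processing notes and the file header. Strand and multi-mapping reads were not used in counting, which can lower genes with close copies. No depth correction had been applied.

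From these counts, CPM with TMM normalization factors, TPM from the counts and the exonic lengths given with them, and tests were obtained in R (version 4.3.3) using the packages limma (3.58.1), DESeq2 (1.42.0) and edgeR (4.0.16). Genes passed filterByExpr by group (15257 genes). The main test was edgeR's glmQLFit and glmQLFTest, 2-sided, Benjamini-Hochberg adjusted over all 15257 genes, with calls at an adjusted P below 0.05. The test of the study, voomWithQualityWeights with lmFit and eBayes, was run beside it, and the DESeq2 Wald test was an alternative. Other alternatives were RLE factors, total counts, no filter on low counts, at least 10 counts in every library, a threshold of 0.01 (that of the study), the replicate number as a block, and each library left out. Standard errors are those implied by the test statistic. All pairs of libraries of a group differed beyond counting noise (chi-square divided by its degrees of freedom, 18.0 or more). The scripts were tested on simulated data. No molecular identifiers are described, so amplified copies of 1 molecule can be counted more than once and read totals cover counting error only.

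The members and all gene lists (other potassium and TRP channel genes, subunits, partners, other ion channels and pumps, and the cell type markers) were chosen with earlier results of these data known. Named genes were the 10 members and, of each channel list, genes called by either test, the 3 with the largest edgeR log2 fold change, and the most abundant by TPM, besides the 3 genes most like the member with the largest change. Other genes named were a marker or stood at 0. A few genes of the lists are not reported here. Promoters are RefSeq's for GRCm38.p6.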

Additional observations from a re-analysis of the deposited data

Results flagged for a closer look

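Over the 4 outside graft libraries 42 quantities were examined. They were the CPM of the members and of the genes named from the lists, and library totals, normalization factors, quality weights and summed member TPM. In 5 of the 42, all of them CPM of a gene, 1 library stood apart from the other 3 by Dixon's criterion at the 95% level. By chance about 2.1 would. Kcnk12 was 40.6 CPM in outside graft 2, the highest, against 36.0 to 36.5 CPM in the others. Kcna3 was 1.33 CPM in outside graft 1, the lowest, and this library also had the smallest total and the smallest quality weight (0.448). The lysosomal channel gene Mcoln1 was 168 CPM in outside graft 3, the highest. The pump subunit gene Atp1b2 was 0.534 CPM in outside graft 1 and Cd38 was 0.644 CPM in outside graft 3, and both were at 0 in the other 3 outside libraries. The inside group, with 3 libraries, was too small for this criterion.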

How the results depend on the processing

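The number of members called by edgeR was 0 in the analysis reported, 1 with voomWithQualityWeights, and 2 (Kcnj2 and Kcnd1) with DESeq2, with no filter on low counts and with a minimum of 10 counts per library. It stayed 0 with RLE factors, total counts, a threshold of 0.01, the replicate block, inside graft 2 alone and every library left out. The voomWithQualityWeights count of 1 became 0 at a threshold of 0.01 and with inside graft 2 alone, and 0 to 1 with each library left out. Over all genes, edgeR called 15, and 0 at a threshold of 0.01, 75 with voomWithQualityWeights, 420 with DESeq2, 366 without the filter, 92 with that minimum, 3 with inside graft 2 alone, and 0 to 73 with each library left out. With voomWithQualityWeights the 75 became 3 at 0.01, 145 with inside graft 2 alone and 1 to 207 with each library left out. The comparison with inside graft 2 alone was chosen after seeing the data and assumes that this library varies like the outside ones.

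The labels do not say that replicate numbers pair the libraries, and the deviations of same-numbered libraries correlated at -0.071, 0.113 and 0.099, with 2 of 3 inside libraries correlating best with their own number. The replicate block, without outside graft 4, gave 43 genes in edgeR and 265 in voomWithQualityWeights, where 2 members (Kcnj2 and Kcnd1) were called, and it turned Kcnk6 to 0.045 and Trpv2 to 0.037 in edgeR and Trpv2 to 0.0096 in voomWithQualityWeights.

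The direction of Kcnj2, Kcnd1, Kcnk12, Kcnk13, Kcna3, Kcnn4, Trpm2 and Trpm7 was the same under all of these alternatives. Signs turned for values near 0, with Trpv2 at 0.040 in inside graft 2 alone (edgeR), Mcoln1 at 0.0097 with DESeq2, 0.0098 with RLE factors and 0.0042 with the minimum of 10 counts, and Kcnj16 at -0.55 with voomWithQualityWeights. With each library left out, edgeR gave -0.28 to 0.030 for Kcnk6, -0.13 to 0.028 for Trpv2, -0.11 to 0.27 for Kcnma1, -0.26 to 0.54 for Kcnj12 and -0.050 to 0.099 for Mcoln1. The cause of these changes was not tested. With 3 and 4 libraries per group, Kcna3 (25 to 319 counts per library) and Kcnn4 (34 to 170) had the widest intervals. Whether low counts or the spread between libraries widened them was not tested.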
